A study of Mus musculus with 14 samples.

Results

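The genes described here are 44 glutathione transferases and antioxidant enzymes of the mouse heart, chosen by symbol out of 49315 genes in the deposited count table. They fall into 6 classes, namely 19 transferases, 10 targets of the transcription factor NRF2, 6 peroxiredoxins, 3 superoxide dismutases, 4 genes of catalase and glutathione peroxidase, and 2 metallothioneins. All 44 symbols were found once each, and all 44 passed the filter on low counts that left 15947 genes for testing. Hearts of male wild-type C57BL/6 mice kept on standard chow were taken at 68 weeks and at 12 weeks, with 4 RNA-seq libraries of total RNA from pulverised heart at each age and no other treatment. The series also holds lists of H3K27me3 regions, a silencing histone mark, called unique to either age by its authors. The labels name neither the mouse behind each library nor the chamber of the heart.

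Glutathione is a small thiol that cells use to neutralise peroxides and reactive chemicals. Glutathione transferases join it to lipid peroxidation products and foreign compounds, peroxiredoxins and glutathione peroxidases use thiols to reduce peroxides, dismutases turn superoxide into hydrogen peroxide, and metallothioneins bind zinc and copper. NRF2, encoded by Nfe2l2, is held in check by KEAP1 and, when released, binds antioxidant response elements together with a small MAF protein to switch on many of these genes, and in the beating heart, with its dense mitochondria, this system handles a steady flow of oxidants.

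The depth was 28842059 to 34599121 counts per library at 68 weeks, against 23599296 to 31662601 at 12 weeks. Genes of the mitochondrial chromosome held 10.1% to 12.1% of the counts at 68 weeks. At 12 weeks they held 7.41%, 8.07%, 11.5% and 11.4% by replicate, and the part of this difference in the calls below was not tested. All 10 cardiomyocyte markers were detected, and their summed level was 73115 to 78186 CPM (counts scaled to a common library size, here by total counts) at 68 weeks and 67102 to 81177 CPM at 12 weeks. The libraries also carried RNA of other tissues in unequal amounts. For 20 markers of airway epithelium the sum by replicate was 31.2, 20.01, 1114 and 27.4 CPM at 68 weeks, against 1890, 1010, 603 and 65.3 CPM at 12 weeks, so that airway RNA was high in 1 library at 68 weeks and in 3 at 12 weeks. Of the 12 adipocyte markers, 4 were lower at 68 weeks. The 12 summed to 5127 to 6143 CPM at 68 weeks and 6902 to 7362 CPM at 12 weeks, without overlap. Age and this sum therefore cannot be told apart here. The sum is not a measure of fat alone, since it includes Fabp4, which is also listed as an endothelial marker. Adipoq, another of the 12, averaged 6.99 CPM at 68 weeks and 25.3 CPM at 12 weeks. The 10 fibroblast markers, of which 1 was lower at 68 weeks, did not overlap either, at 1031 to 1341 CPM at 68 weeks and 1453 to 1806 CPM at 12 weeks. The 8 brown adipocyte markers, of which 2 were lower at 68 weeks, did not overlap as well. They summed to 1105.5 to 1175.7 CPM at 68 weeks and 1323.0 to 1622.9 CPM at 12 weeks. The part of adipocyte, brown adipocyte and fibroblast RNA in the calls below was not tested apart from age. The 8 erythroid markers reached 8374 CPM in 68-week replicate 2, 5193 CPM in 12-week replicate 2 and 7947 CPM in 12-week replicate 3, and lay between 394 and 1115 CPM elsewhere. In bulk tissue, fewer cells of a type and less RNA per cell cannot be told apart.

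Of the 44 genes, 4 were higher at 68 weeks and 0 were lower by edgeR's quasi-likelihood test with Benjamini-Hochberg adjustment over all genes at an adjusted p of 0.05. The higher ones were the transferases Gsta2 and Gstm2, the quinone reductase gene Nqo1 and the growth inhibitor gene Osgin1. They make up 9.09% of the genes described here, where 1.61% of all genes tested were higher, 1.22% were lower and 2.83% were called in either direction. The 44 genes were chosen with earlier results of these data known, so the gap between these shares is not a result about the group. At an unadjusted p under 0.05, 8 of the 44 passed (18.2%), against 19.0% of all genes tested. By DESeq2, 5 were higher and 1 was lower, where that tool called 3.34% and 2.58% of all its genes. With library size alone as the scaling, 3 were higher and 2 lower, and over all genes 176 were higher (1.1%) and 248 lower (1.56%), against 256 and 195 with TMM scaling. Without the filter on low counts, 5 were higher and 1 lower, against 1.05% and 0.882% of all genes. With the summed airway markers as a covariate, 1 was higher, against 0.426% of all genes, and 0 were lower. The median log2 fold change (68 minus 12 weeks) was 0.01 over the 44 genes and -0.01 over all genes tested. Complete separation of the ages was seen for 5 genes with all 68-week libraries above (11.4%, against 6.26% of all genes tested) and for 2 with all of them below (4.55%, against 5.86%). Among the 36 genes that were not called and averaged at least 5 CPM, 30 had a 95% interval of the log2 fold change that lay wholly between -0.5 and 0.5. Of all 15947 genes tested, called or not and at any level, 10173 had such an interval.

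**Figure D1:**
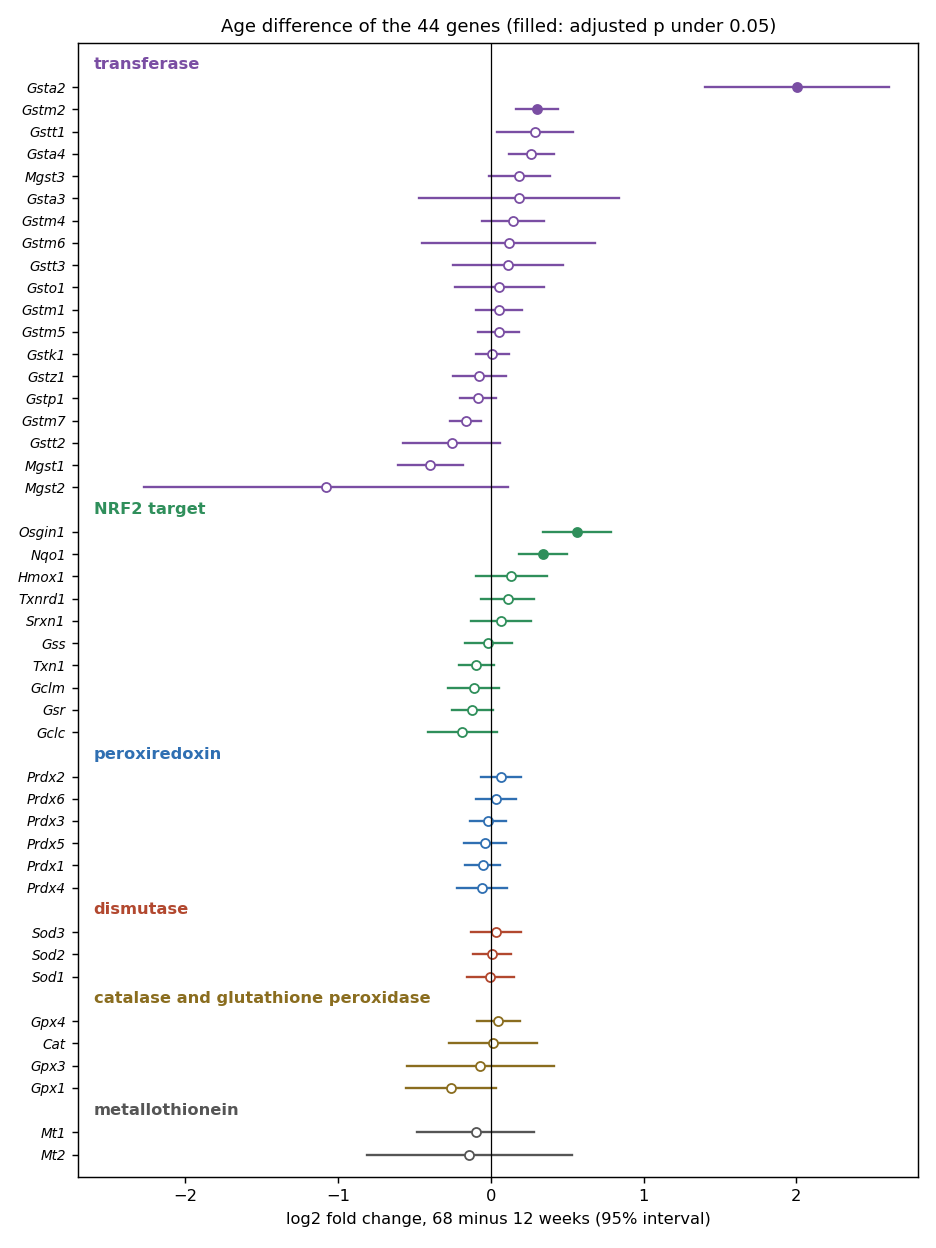
Log2 fold change (68 minus 12 weeks, horizontal axis) of each of the 44 genes, grouped by class, with points for the estimate, lines for its 95% interval and filled points for an adjusted p under 0.05 (edgeR, 4 libraries per age). Only Gsta2, Gstm2, Osgin1 and Nqo1 are filled, all to the right of 0, while the peroxiredoxin and dismutase intervals all lie close to 0.

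The stretches upstream of the 4 higher genes are shown because NRF2 and AP-1 factors act on antioxidant genes through short sites near their starts. Each is the 250 bases before the RefSeq start site in GRCm38.p6, read 5′ to 3′ on the gene's strand. Capitals mark TGACTCA (the AP-1 site) or TATAAA (the TATA box) on either strand, the antioxidant response element core TGACNNNGC having no match in any of these 4.
Gsta2 (chr9:78347146-78347395, minus strand): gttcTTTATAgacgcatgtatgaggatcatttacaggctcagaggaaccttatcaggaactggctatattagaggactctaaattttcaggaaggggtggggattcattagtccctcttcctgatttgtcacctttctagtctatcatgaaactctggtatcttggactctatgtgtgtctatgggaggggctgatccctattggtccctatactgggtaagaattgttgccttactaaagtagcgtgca
Gstm2 (chr3:107986421-107986670, minus strand): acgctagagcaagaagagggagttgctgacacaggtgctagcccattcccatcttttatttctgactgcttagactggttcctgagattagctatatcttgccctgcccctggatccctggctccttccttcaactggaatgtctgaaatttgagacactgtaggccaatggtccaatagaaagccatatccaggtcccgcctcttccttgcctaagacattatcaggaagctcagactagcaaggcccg
Nqo1 (chr8:107403206-107403455, minus strand): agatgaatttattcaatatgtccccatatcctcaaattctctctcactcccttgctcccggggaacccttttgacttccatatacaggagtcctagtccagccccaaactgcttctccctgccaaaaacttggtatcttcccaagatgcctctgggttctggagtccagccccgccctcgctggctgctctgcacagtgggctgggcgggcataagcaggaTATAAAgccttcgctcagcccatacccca
Osgin1 (chr8:119436897-119437146, plus strand): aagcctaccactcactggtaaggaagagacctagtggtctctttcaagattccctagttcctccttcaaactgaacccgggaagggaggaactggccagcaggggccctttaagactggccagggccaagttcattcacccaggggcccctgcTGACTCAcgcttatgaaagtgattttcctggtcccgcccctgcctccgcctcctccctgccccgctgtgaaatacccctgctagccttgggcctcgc
The AP-1 letters stood once, 97 bases before the Osgin1 start. The TATA letters stood close before the Nqo1 start and, on the other strand, near the far end of the Gsta2 stretch. The RefSeq start of Gsta2 lay 8643 bases from the start in the count tables and that of Osgin1 lay 3023 bases from it, while the starts of Gstm2 and Nqo1 lay 33 bases and 1 base away.

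Promoter windows of 250 bases before and 50 bases after the start were at hand for 37 of the 44 genes. The core TGACNNNGC, on either strand, was in a window of 10 of these 37 (27%) and of 14.0% of all 27025 genes with a window. TGACTCA was in 7 of 37 (18.9%), against 5.95% of all genes. The letters can overlap, as in Mt2 (TGACTCAGC) and Prdx1 (GCTGAGTCA), where 1 stretch matches both. The 10 genes with the core, which also included Gsta3, Gstm5, Gstm7, Gclm, Mgst1, Srxn1, Sod1 and Txnrd1, held 0 of the 4 genes that were higher at 68 weeks. Bases outside these windows were not searched, so the 4 higher genes may hold the core farther from their starts. A match is a description of letters and not a measured binding site.

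The alpha class transferase gene Gsta2 (chromosome 9, 78331018 to 78355788, mm10 by label) differed most. It stood at 0.695, 0.649, 0.741 and 0.684 CPM in the 4 libraries at 68 weeks, against 0.118, 0.251, 0.172 and 0.144 CPM in the 4 libraries at 12 weeks. The ages did not overlap, and the lowest library at 68 weeks was above the highest at 12 weeks by more than the whole range within either age. Its log2 fold change was 2.00 ± 0.27 (SE), a 4.01-fold difference, with an adjusted p of 0.00738 by edgeR, although the gene had only 85 counts in all at 68 weeks and 19 at 12 weeks. Its near-identical neighbour Gsta1 had 16, 17, 15 and 22 counts at 68 weeks, against 11, 9, 13 and 9 at 12 weeks, and was not called (0.59 ± 0.26, adjusted p = 0.256, edgeR). How reads that match both copies were counted is not given in the sources used here, and with the counts of both summed, the log2 fold change was 1.20 ± 0.21 (adjusted p = 0.0197, edgeR). Gsta2 stayed called in each of the 8 fits that leave out 1 library (log2 fold change 1.84 to 2.25) and with the airway sum as a covariate (2.08 ± 0.33, adjusted p = 0.0322, edgeR). With adipocyte markers in the model it was 1.83 ± 0.58 and not called (adjusted p = 0.585, edgeR), a fit in which edgeR called 1 gene higher and 0 lower of all genes.

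The mu class gene Gstm2 (chromosome 3, 107981702 to 107986453), one of a tandem cluster of related genes, stood at 77.6, 73.5, 77.3 and 66.9 CPM in the 4 libraries at 68 weeks, against 56.5, 59.9, 59.2 and 64.2 CPM at 12 weeks. All 4 libraries at 68 weeks were above all 4 at 12 weeks, with a narrow gap between 68-week replicate 4 and 12-week replicate 4. The log2 fold change was 0.30 ± 0.06, a 1.23-fold difference (adjusted p = 0.0364, edgeR). The call held in 2 of the 8 fits that leave out 1 library, and the adjusted p was 0.0671 to 0.0868 when 68-week replicate 1, 2 or 3 or 12-week replicate 1, 2 or 3 was left out (log2 fold change 0.27 to 0.30). It was also lost with library size alone as the scaling (0.24 ± 0.06, adjusted p = 0.0728, edgeR) and with the airway sum as a covariate (0.29 ± 0.08, adjusted p = 0.158, edgeR). Among the 4 libraries low in airway RNA, 3 at 68 weeks against 1 at 12 weeks, it was 0.18, and among the 4 high in it, 1 against 3, it was 0.40. With adipocyte markers in the model it was 0.52 ± 0.12 (adjusted p = 0.349, edgeR), in a fit that called 1 gene higher and 0 lower of all genes.

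**Figure D2:**
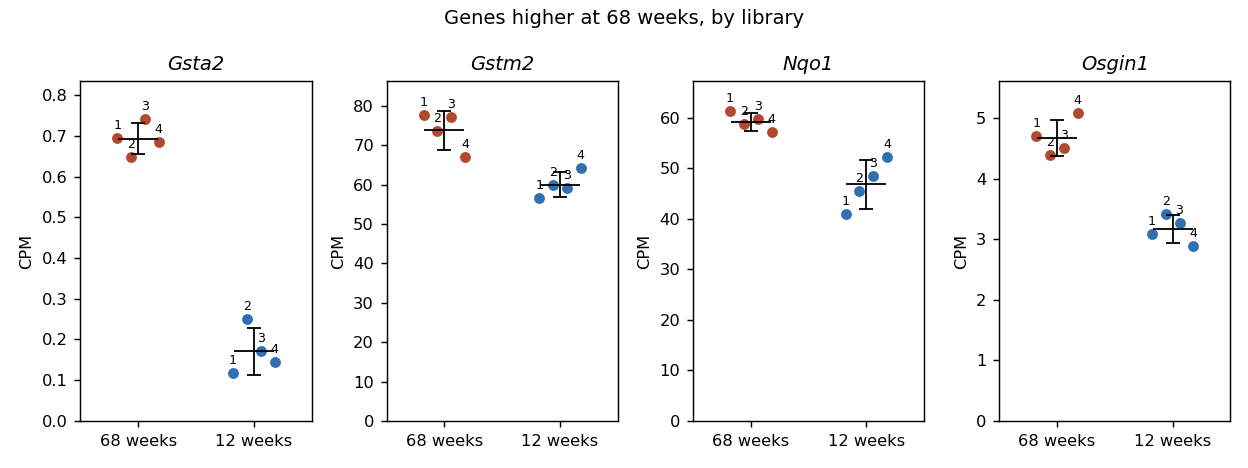
CPM (vertical axis, from 0) of Gsta2, Gstm2, Nqo1 and Osgin1 in each library, with points numbered by replicate, and bars for the mean and SD of the 4 libraries at 68 weeks (left) and at 12 weeks (right). In each panel all 68-week points lie above all 12-week points, with the widest relative gap for Gsta2 (0.649 against 0.251 CPM at the nearest points).

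None of the other 5 mu class genes was called, and their difference from Gstm2 was not tested. Gstm1, the most abundant of them, averaged 161 ± 11.3 CPM at 68 weeks and 155 ± 10.8 CPM at 12 weeks (SD, n = 4 each; log2 fold change 0.05 ± 0.07). Gstm5 (0.05 ± 0.06), Gstm4 (0.14 ± 0.09) and Gstm6 (0.12 ± 0.25) were not called either, and the 95% intervals of Gstm4 (-0.06 to 0.34) and Gstm6 (-0.45 to 0.68) hold the Gstm2 estimate. Gstm7 stood at 29.6, 28.0, 28.3 and 27.5 CPM at 68 weeks, against 30.4, 31.3, 33.0 and 32.6 CPM at 12 weeks. All its 68-week libraries lay below all its 12-week libraries, yet the difference was small (-0.16 ± 0.05, adjusted p = 0.0898, edgeR) and passed only with library size alone as the scaling (-0.22, adjusted p = 0.0413, edgeR). The symbols of this cluster belong to related genes whose shared reads the counting may split, so differences between its members are uncertain.

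In the alpha class, Gsta4, which conjugates the lipid peroxidation product 4-hydroxynonenal, came next to Gsta2. It stood at 64.2, 71.8, 73.9 and 60.8 CPM at 68 weeks, against 54.8, 58.3, 55.6 and 56.4 CPM at 12 weeks. The ages did not overlap, and the log2 fold change of 0.27 ± 0.07 missed the threshold (adjusted p = 0.0665, edgeR) but passed by DESeq2 (adjusted p = 0.00811) and with 68-week replicate 4 left out (0.32, adjusted p = 0.0463, edgeR). Gsta4 also passed without the filter on low counts (0.27, adjusted p = 0.0461, edgeR), but not with library size alone as the scaling (0.21, adjusted p = 0.140, edgeR). Gsta3, at 6.39, 7.07, 9.77 and 6.13 CPM at 68 weeks and 10.7, 5.71, 5.60 and 3.61 CPM at 12 weeks, overlapped widely (0.18 ± 0.29). Its highest library at each age was the one with the most airway RNA, and with the airway sum as a covariate its log2 fold change was 0.73 ± 0.24 (adjusted p = 0.259, edgeR).

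None of the 3 microsomal transferases was called by edgeR. Mgst1, a membrane enzyme that conjugates glutathione and reduces lipid peroxides, stood at 46.4, 40.7, 50.6 and 38.6 CPM at 68 weeks, against 55.7, 52.4, 58.6 and 65.1 CPM at 12 weeks. All its 68-week libraries lay below all its 12-week libraries, and the log2 fold change, -0.40 ± 0.10, missed the threshold by edgeR (adjusted p = 0.0629) and passed by DESeq2 (adjusted p = 0.00537), without a filter on low counts (adjusted p = 0.0323, edgeR) and without 68-week replicate 3 (-0.47, adjusted p = 0.0409, edgeR). Mgst1 was also called lower with library size alone as the scaling and with erythroid markers in the model, a setting chosen after seeing the data. It was not called with RLE scaling, a replicate block or the airway sum as a covariate. With adipocyte markers in the model the Mgst1 log2 fold change was -0.11 ± 0.21, in a fit that called 1 gene higher and 0 lower of all genes. The sum of these markers did not overlap between the ages. The part of adipocyte RNA in the Mgst1 difference was not tested apart from age. The Mgst1 value was -0.64 among the 4 libraries low in airway RNA, with 1 library at 12 weeks, and -0.13 among those high in it, with 1 library at 68 weeks. Mgst3, the transferase with the highest level per length, stood at 143, 152, 139 and 147 CPM at 68 weeks, against 103, 129, 137 and 140 CPM at 12 weeks. The ages overlapped, with 12-week replicate 1 the lowest of all (0.19 ± 0.09, adjusted p = 0.289, edgeR). Mgst2 was scarce, at 0.199, 0.324, 0.387 and 0.208 CPM at 68 weeks and 0.943, 0.898, 0.344 and 0.144 CPM at 12 weeks. Its log2 fold change of -1.08 ± 0.53 was not called, and was -0.25 ± 0.52 with the airway sum as a covariate. Its 2 high libraries were 12-week replicates 1 and 2, whose airway sums were 1890 and 1010 CPM. At 68 weeks Mgst2 was highest in replicate 3 (0.387 CPM), whose airway sum was 1114 CPM. The part of airway RNA in this difference was not tested.

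The remaining soluble and mitochondrial transferases were not called. Gstp1, the pi class enzyme, averaged 69.7 ± 3.57 CPM at 68 weeks and 73.8 ± 3.34 CPM at 12 weeks (log2 fold change -0.08 ± 0.05). The mitochondrial and peroxisomal Gstk1 had 0.01 ± 0.05, and Gstz1, an enzyme of tyrosine breakdown, had -0.08 ± 0.08. Gsto1 had 0.06 ± 0.13, or 0.27 ± 0.12 with the airway sum as a covariate, and was again not called. Of the theta class, Gstt1 had 0.29 ± 0.11 (adjusted p = 0.197, edgeR), which passed without 12-week replicate 4 (0.41, adjusted p = 0.0482, edgeR), while Gstt2 had -0.26 ± 0.14 and Gstt3 0.11 ± 0.16. Gstz1, Gsto1 and Gstm5, like Gss, Gclm, Prdx2, Prdx5 and Mt2 in other classes, overlap a gene on the opposite strand, and since use of strand in the counting is not given in the sources used here, their reads may be mixed with its reads, while none of the 4 called genes overlaps another gene. Over all 19 transferases, 13 estimates were above 0 and 6 below it, with a median log2 fold change of 0.06. Among all genes tested, 7635 estimates were above 0 and 8312 below it.

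**Figure D3:**
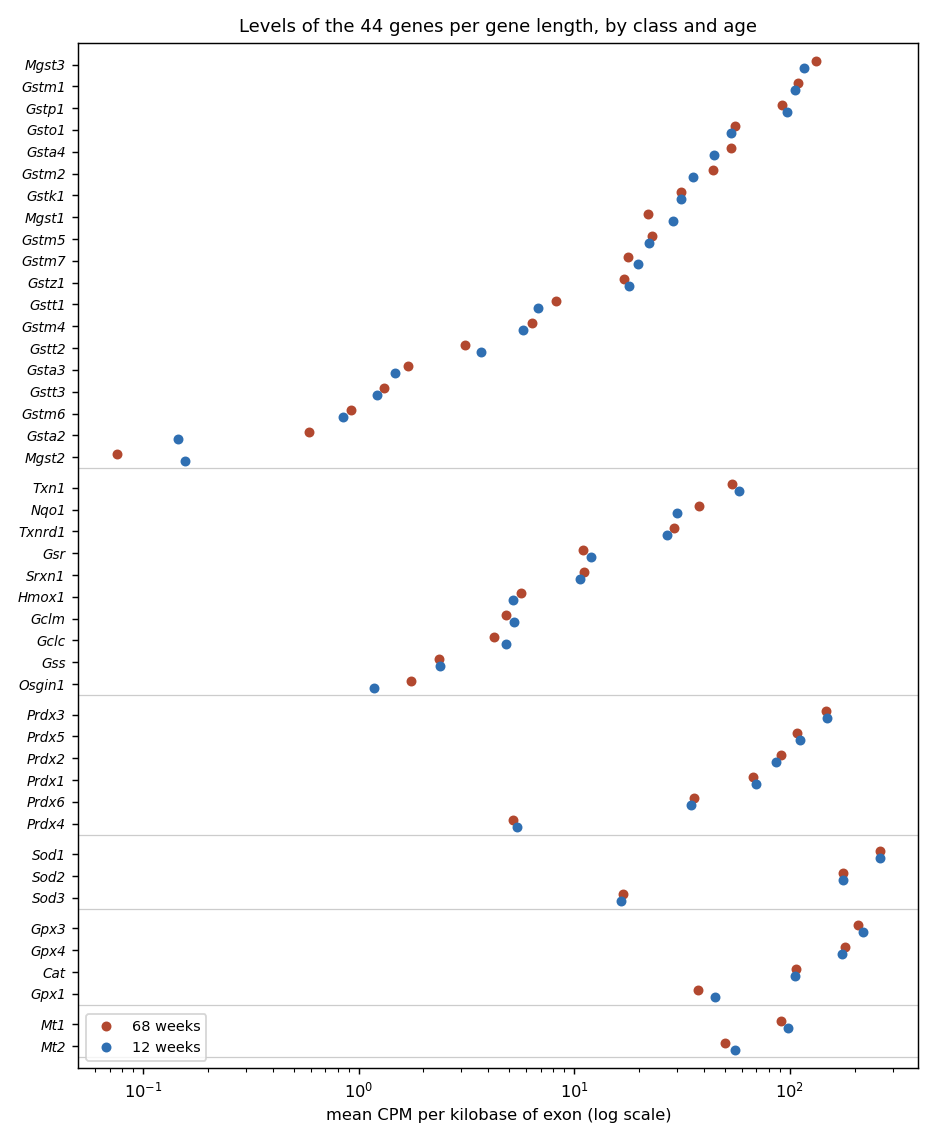
Mean CPM per kilobase of exon (horizontal log axis) of each gene at 68 and at 12 weeks, 4 libraries each, ordered by level within classes separated by grey lines (transferases at the top, metallothioneins at the bottom). The transferases run from Mgst3 (132 at 68 weeks, 116 at 12 weeks) down to Mgst2, and Sod1, Gpx3, Gpx4, Sod2 and Prdx3 are among the highest of all.

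Of the 10 NRF2 targets, Osgin1 and Nqo1 rose and 8 were not called, with 5 estimates above 0 and 5 below it and a median of 0.03. Osgin1 (chromosome 8, 119434124 to 119446256), which encodes an oxidative stress induced growth inhibitor, stood at 4.70, 4.40, 4.51 and 5.09 CPM at 68 weeks, against 3.09, 3.41, 3.27 and 2.89 CPM at 12 weeks. The ages were well apart, and the log2 fold change was 0.56 ± 0.10, a 1.48-fold difference (adjusted p = 0.0232, edgeR). The adjusted p was 0.0518 to 0.0686 without 68-week replicate 1 or 4 or 12-week replicate 1 or 3 (log2 fold change 0.52 to 0.58). With the airway sum as a covariate the value was 0.58 ± 0.13 and not called (adjusted p = 0.105, edgeR). It was 0.71 among the libraries low in airway RNA, with 1 library at 12 weeks, and 0.47 among those high in it, with 1 library at 68 weeks. With adipocyte markers in the model the Osgin1 value was 0.28 ± 0.21 (adjusted p = 0.860, edgeR), in a fit that called 1 gene higher and 0 lower of all genes.

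Nqo1 (chromosome 8, 107388225 to 107403206), which encodes the quinone reductase used as a standard readout of NRF2 activity, stood at 61.3, 58.7, 59.8 and 57.1 CPM at 68 weeks, against 41.0, 45.5, 48.4 and 52.3 CPM at 12 weeks. The 68-week libraries were close to one another, and the 12-week libraries were more spread, with replicate 4 the nearest to the older hearts. The log2 fold change was 0.34 ± 0.07, a 1.27-fold difference (adjusted p = 0.0396, edgeR). The call was lost when any library but 12-week replicate 4 was left out (adjusted p = 0.0589 to 0.0953, log2 fold change 0.28 to 0.36). With the airway sum as a covariate it was 0.28 ± 0.08 (adjusted p = 0.191, edgeR). It was 0.18 among the libraries low in airway RNA and 0.41 among those high in it. The first subset holds 12-week replicate 4 as its only 12-week library, and the second holds 68-week replicate 3 as its only 68-week library. With adipocyte markers in the model Nqo1 was not called, in a fit that called 1 gene higher and 0 lower of all genes.

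The other NRF2 targets showed no call in either direction. The 2 subunits of the rate-limiting enzyme of glutathione synthesis had log2 fold changes of -0.19 ± 0.10 (Gclc) and -0.11 ± 0.07 (Gclm), and glutathione synthetase, Gss, had -0.02 ± 0.07. Glutathione reductase, Gsr, which regenerates the thiol, had -0.12 ± 0.06. Haem oxygenase, Hmox1, had 0.14 ± 0.10 and stood at 9.01, 9.08, 11.1 and 10.6 CPM at 68 weeks, against 8.22, 8.26, 9.73 and 10.1 CPM at 12 weeks, with overlap. Of the thioredoxin branch, Txn1, the most abundant of these 10 per length, stood at 59.8, 54.9, 56.4 and 56.6 CPM at 68 weeks, against 59.6, 65.4, 57.9 and 60.5 CPM at 12 weeks (-0.10 ± 0.05). The reductase gene Txnrd1 (0.11 ± 0.08) and the sulfiredoxin gene Srxn1 (0.07 ± 0.09) were not called.

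None of the 6 peroxiredoxins was called, with log2 fold changes from -0.06 (Prdx4) to 0.07 (Prdx2). The 95% interval of each lay between -0.5 and 0.5, as did that of 10173 of all 15947 genes tested. Prdx3, the mitochondrial form and the most abundant per length, stood at 219, 229, 208 and 215 CPM at 68 weeks, against 210, 226, 214 and 232 CPM at 12 weeks (95% interval -0.13 to 0.10). Prdx2, a cytosolic form, stood at 274, 296, 264 and 273 CPM at 68 weeks, against 255, 287, 251 and 265 CPM at 12 weeks (-0.07 to 0.20). Its highest library at each age was replicate 2, and its lowest at 12 weeks was replicate 3, which had the most erythroid marker RNA of that age. Prdx1, another cytosolic form, stood at 206, 201, 200 and 213 CPM at 68 weeks, against 205, 224, 201 and 219 CPM at 12 weeks (-0.17 to 0.06). Prdx5 (-0.04) and Prdx6 (0.03) lay within that range too, and the endoplasmic reticulum form Prdx4 was the scarcest of the 6 per length.

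None of the 3 dismutases was called by edgeR or DESeq2, and 0 of the 3 had an unadjusted p under 0.05. Of all genes tested 19.0% had one, so 0 among 3 genes says little. Sod2, the mitochondrial manganese enzyme, stood at 663, 718, 663 and 668 CPM at 68 weeks, against 625, 690, 676 and 706 CPM at 12 weeks, with a 95% interval of the log2 fold change from -0.11 to 0.13. Sod1, the cytosolic copper and zinc enzyme and the highest of all 44 genes per length (262 CPM per kilobase at 68 weeks, 263 at 12 weeks), stood at 188, 168, 160 and 162 CPM at 68 weeks, against 158, 177, 161 and 183 CPM at 12 weeks (-0.16 to 0.15). Sod3, the secreted form, stood at 62.5, 59.7, 68.2 and 60.4 CPM at 68 weeks, against 64.1, 65.8, 53.2 and 62.1 CPM at 12 weeks (-0.13 to 0.20). For each of the 3 the ages overlapped widely.

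Of the 4 genes of catalase and glutathione peroxidase, none was called, and Gpx1 had the smallest p among them. This cytosolic peroxidase stood at 51.7, 68.1, 47.1 and 50.0 CPM at 68 weeks, against 52.8, 69.9, 73.6 and 63.8 CPM at 12 weeks. The 3 highest libraries, 12-week replicates 3 and 2 and 68-week replicate 2, were the 3 rich in erythroid markers, whose part in the Gpx1 values was not tested. Its log2 fold change was -0.26 ± 0.13 and, with erythroid markers in the model, a setting chosen after seeing the data, -0.16 ± 0.06, not called in either (adjusted p = 0.319 and 0.228, edgeR). Gpx4, which reduces lipid peroxides in membranes, stood at 289, 321, 317 and 320 CPM at 68 weeks, against 271, 318, 306 and 311 CPM at 12 weeks (0.05 ± 0.06). Gpx3, a secreted form and the most abundant of the class per length, varied more, at 428, 256, 449 and 374 CPM at 68 weeks and 320, 290, 454 and 518 CPM at 12 weeks (-0.07 ± 0.21). Catalase, Cat, had 0.01 ± 0.13 and was highest at 351 CPM in 12-week replicate 4.

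**Figure D4:**
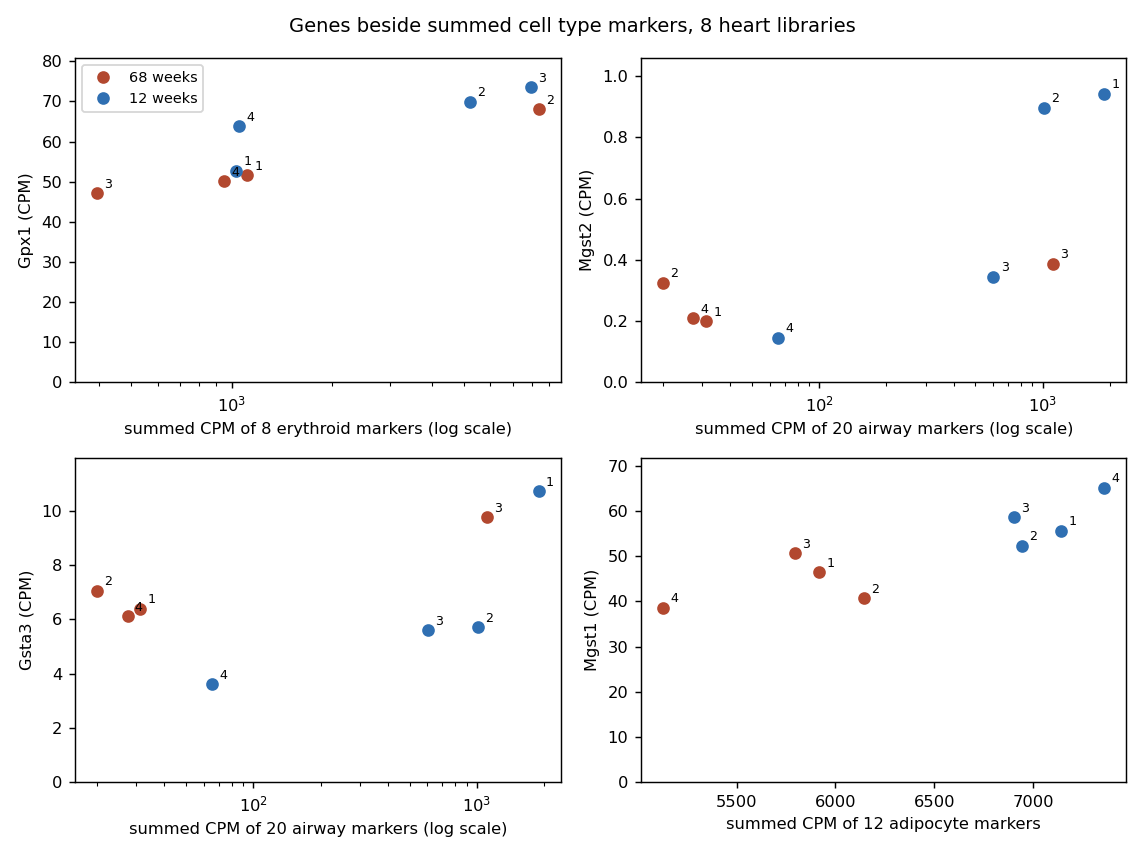
CPM of Gpx1, Mgst2, Gsta3 and Mgst1 (vertical axes, from 0) against the summed CPM of erythroid, airway or adipocyte markers (horizontal axes, log scale except for adipocytes) in the 8 libraries, numbered by replicate. Gpx1 is highest in the 3 libraries rich in erythroid markers, Mgst2 and Gsta3 are highest in 12-week replicate 1, the richest in airway markers, and for Mgst1 the 12-week points lie above and to the right of the 68-week points.

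The metallothioneins Mt1 and Mt2, which respond to metals and glucocorticoids, were not called. Mt1 stood at 114, 100, 119 and 123 CPM at 68 weeks, against 83.5, 107, 141 and 157 CPM at 12 weeks (log2 fold change -0.10 ± 0.17). Mt2 stood at 29.3, 20.5, 37.0 and 31.5 CPM at 68 weeks, against 18.5, 24.6, 34.0 and 53.6 CPM at 12 weeks (-0.14 ± 0.30). Both were lowest in 12-week replicate 1 and highest in 12-week replicate 4, so the spread lay within the younger group, and for Mt2 a log2 difference between -0.81 and 0.53 remained within the 95% interval.

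The genes that control and feed this system were tested as 9 further lists, in which 134 genes passed the filter, 2 of them higher (1.49%) and 2 lower (1.49%) at 68 weeks. These shares are near the 1.61% and 1.22% of all genes tested, so the calls are given as values of single genes and not as results about the lists. Among 12 NRF2 regulators, Nfe2l2 and Mafk rose. Nfe2l2, which encodes NRF2 itself, stood at 65.3, 76.9, 66.8 and 74.6 CPM at 68 weeks, against 52.9, 52.8, 57.3 and 60.5 CPM at 12 weeks, without overlap (log2 fold change 0.34 ± 0.07, adjusted p = 0.0365, edgeR). Mafk, one of its small MAF partners, stood at 52.9, 49.9, 48.7 and 51.5 CPM at 68 weeks, against 41.2, 43.7, 43.4 and 45.5 CPM at 12 weeks, again without overlap (0.22 ± 0.05, adjusted p = 0.0414, edgeR). Of the other small MAF genes, Maff had 0.40 ± 0.11 (adjusted p = 0.0912, edgeR) and Mafg -0.03, neither called, and the NRF2 inhibitor Keap1 had 0.03 ± 0.05. The median of the 12 was 0.07, with 8 estimates above 0 and 4 below, against 7635 above and 8312 below over all genes tested.

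Both calls were close to the threshold, and that of Mafk was lost with library size alone (0.17, adjusted p = 0.0850, edgeR) and without the filter on low counts (0.23, adjusted p = 0.0514, edgeR). Nfe2l2 had an adjusted p of 0.0787 to 0.100 (edgeR) without 68-week replicate 2 or 4 or 12-week replicate 1, 2 or 3 (log2 fold change 0.30 to 0.36), and Mafk one of 0.0850 to 0.0986 without 68-week replicate 1, 2 or 4 or 12-week replicate 1, 2 or 3 (0.20 to 0.23). With the airway sum as a covariate they had 0.25 ± 0.07 and 0.17 ± 0.05 and were not called (adjusted p = 0.186 and 0.231, edgeR).

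**Figure D5:**
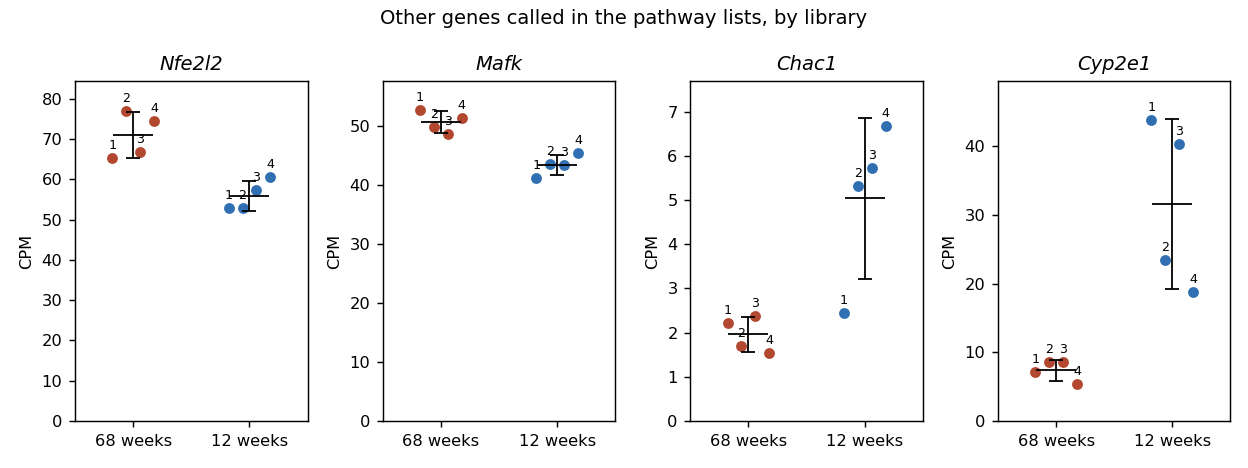
CPM (vertical axis, from 0) of Nfe2l2, Mafk, Chac1 and Cyp2e1 in each library, with points numbered by replicate, and bars for the mean and SD of the 4 libraries at 68 weeks (left) and at 12 weeks (right). Nfe2l2 and Mafk are higher and Chac1 and Cyp2e1 lower at 68 weeks, with Chac1 in 12-week replicate 1 (2.45 CPM) next to the 68-week points.

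Of 20 tested genes of glutathione turnover and transport, Chac1 fell and 19 were not called. Chac1, which encodes an enzyme that breaks glutathione down, stood at 2.22, 1.69, 2.39 and 1.55 CPM at 68 weeks, against 2.45, 5.31, 5.73 and 6.68 CPM at 12 weeks (log2 fold change -1.35 ± 0.29, adjusted p = 0.0440, edgeR). Its 12-week replicate 1 lay just above the highest 68-week library, and without that replicate the log2 fold change was -1.59 (adjusted p = 0.00639, edgeR). The call was lost when any 1 of the other 7 libraries was left out (-1.46 to -1.18, adjusted p = 0.0589 to 0.122, edgeR) and with the airway sum as a covariate (-1.45 ± 0.34, adjusted p = 0.110, edgeR).

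Of 18 tested genes of oxidant-producing enzymes, Cyp2e1 fell and 17 were not called, with 14 estimates below 0 and a median of -0.08. Of all 15947 genes tested, 8312 had an estimate below 0. Cyp2e1, a cytochrome P450 known for releasing oxidants, stood at 7.09, 8.58, 8.57 and 5.36 CPM at 68 weeks, against 43.8, 23.5, 40.3 and 18.8 CPM at 12 weeks. The ages did not overlap, and the log2 fold change was -2.10 ± 0.28 (adjusted p = 0.00738, edgeR). It stayed called in all 8 fits that leave out 1 library (-2.28 to -1.89), and just missed the threshold with the airway sum as a covariate (-1.72 ± 0.31, adjusted p = 0.0508, edgeR). With adipocyte markers in the model it was -1.71 ± 0.68 and not called (adjusted p = 0.701, edgeR), in a fit that called 1 gene higher and 0 lower of all genes.

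The other 6 lists held no gene that passed. Their smallest p belonged to the pentose phosphate gene Tkt among 15 genes of NADPH supply (-0.98 ± 0.24, adjusted p = 0.0646, edgeR) and to the metal-sensing factor gene Mtf1 among 14 of metal handling (0.17 ± 0.04, adjusted p = 0.0659, edgeR). They were followed by Msrb3 among 16 further thioredoxin system genes (0.23 ± 0.06), Tiparp among 24 further NRF2 targets (-0.28 ± 0.08), Gpx7 among 2 further glutathione peroxidases (-0.30 ± 0.10) and Clic4 among 13 relatives of the transferases (0.14 ± 0.05). The 24 further NRF2 targets had a median log2 fold change of -0.03. Among them 9 estimates were above 0 and 15 below it, against 7635 and 8312 over all genes tested.

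Of the 44 genes, Osgin1 alone was linked by the authors to an H3K27me3 region unique to 12 weeks, where 1.44% of all genes tested had such a link, and 0 of 44 were linked to a region unique to 68 weeks, where 3.46% were. The region was listed on chromosome 8 at 120172734 to 120172992, with a score of 4.86 that the authors call enrichment and whose scale is not given in the sources used here. It lay 726478 bases outside the span of Osgin1 in the count tables, the genome build of the region lists was not established, and the lists hold no value per library, so the link could not be tested against replicates.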

How the data were processed

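RNA-seq of total RNA from mouse heart gave whole-number counts per gene, deposited by the authors for 4 libraries at 68 weeks and 4 at 12 weeks. Per the submitters' processing notes, the tools included STAR 2.5.2b, Trimmomatic 0.36, Subread 1.5.2 with featureCounts, and DESeq2, as well as MACS3 3.0.0b1, Picard 2.26.2, Bowtie2 2.4.2, Trim Galore 0.6.5 and SAMtools 1.14. The build is mm10 by label, and how strand and multiply mapping reads were treated is not given in the sources used here. Lists of H3K27me3 regions, 1 per age, hold a score per region deposited by the authors, with no value per library. Gene length (another value in the deposited tables) gave levels per kilobase.

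The members and lists were chosen with earlier results of these data known. Counts were tested with edgeR 4.0.16 (R 4.3.3, limma 3.58.1): TMM scaling, filterByExpr, quasi-likelihood test of age, Benjamini-Hochberg adjustment over 15947 genes, threshold 0.05. CPM use the TMM-scaled library size, and marker sums use total counts. SE was taken from each estimate and its F statistic, and 95% intervals use the fit's degrees of freedom. Values in every library are given for called members and, in each class, for the 2 members with the smallest p and the one with the highest level per length. Of each further list, called genes or else the gene with the smallest p are named. Gsta3, Gsta4, Gstm7, Mgst1, Mgst2 and Hmox1 are also shown by library, chosen after their values were seen. Alternatives were RLE and library-size scaling, no filter, DESeq2 1.42.0, a replicate block, marker covariates, subsets by airway markers, and leaving out each library. The fit was tested on simulated data. The labels do not say that libraries came from separate mice, so each p-value reflects only how these libraries vary, which may be technical. Promoter sequences are from RefSeq (GRCm38.p6).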

Additional observations from a re-analysis of the deposited data

Results flagged for a closer look

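In 3 of 108 groups of 4 libraries, 1 library stood far from the other 3 relative to the group's range, where chance flags about 1 in 20 groups. For the peroxiredoxin gene Prdx5, 12-week replicate 2 was highest at 264.93 CPM, and the other 12-week libraries lay between 226 and 232 CPM. For the mitochondrial dismutase gene Sod2, 68-week replicate 2 was highest at 718.22 CPM, and the other 68-week libraries lay between 663 and 668 CPM. For the lipid peroxidase gene Gpx4, 68-week replicate 1 was lowest at 289.05 CPM, and the other 68-week libraries lay between 317 and 321 CPM. None of the 3 genes was called between the ages by edgeR.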

How the results depend on the processing

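Of the 44 genes, 4 were higher and 0 lower at 68 weeks, and of the genes of the 9 further lists 2 were higher and 2 lower. RLE scaling gave the same 4 counts. The 4 counts in that order were 3, 2, 1 and 2 with library size alone, 5, 1, 1 and 3 without a filter, 5, 1, 7 and 4 by DESeq2, 1, 0, 0 and 0 with airway markers in the model, and 0 throughout with adipocyte markers and in either subset of 4 libraries by airway RNA. Those 3 fits called few genes of any kind (1 higher and 0 lower with adipocyte markers, 10 and 23 in the subset low in airway RNA, 4 and 1 in the subset high in it), so their 0 counts say nothing about these genes. With erythroid markers, chosen after seeing the data, they were 2, 1, 1 and 2. Leaving out each library in turn gave 1 to 5, 0 to 1, 0 to 3 and 1 to 2. With a replicate block they were 1, 0, 0 and 1. Same-numbered libraries deviated together with correlations of -0.24 to 0.33, and 1 of 8 correlated best with its own number. These correlations showed no pairing by number. Unequal airway RNA also enters them, and a batch shared by number was not tested. Over the single genes, 794 values kept their direction and side of the threshold, 79 lost a call and 17 gained one. Another 80, of 29 genes, changed sign, 0 of them called in either fit. The H3K27me3 link count was 1 by Ensembl ID and 1 by symbol. Gsta2 rests on 85 and 19 counts, so its fold is imprecise, and Mgst2 on 34 and 69. The log2 fold changes that changed sign were as follows. With library size alone they were Gstm1 -0.0018, Gstm5 -0.0059, Gsto1 -0.0078, Gstk1 -0.048, Prdx6 -0.026, Sod2 -0.049, Sod3 -0.028, Cat -0.038 and Gpx4 -0.0085. With RLE scaling there was Sod1 0.0015. Without a filter there was Sod1 0.0055. By DESeq2 there was Sod1 0.0062. With airway markers they were Gstm5 -0.031, Gstm6 -0.051, Gstk1 -0.020, Sod2 -0.040 and Cat -0.12. With adipocyte markers they were Gstp1 0.070, Gsto1 -0.032, Gstt2 0.45, Gstz1 0.20, Hmox1 -0.038, Gclm 0.17, Txnrd1 -0.25, Srxn1 -0.39, Prdx3 0.073, Sod1 0.15 and Gpx4 -0.012. With erythroid markers there was Sod3 -0.0047. In the 4 libraries lowest in airway RNA they were Gstm1 -0.092, Gstm4 -0.049, Gstm5 -0.029, Gstm6 -0.19, Gstt1 -0.015, Gstk1 -0.040, Hmox1 -0.076, Gclc 0.12, Gss 0.036, Prdx5 0.046, Sod2 -0.045, Sod3 -0.028, Cat -0.32 and Gpx4 -0.00044. In the 4 highest in it they were Sod2 -0.00045, Gpx3 0.34, Mt1 0.10 and Mt2 0.53. Leaving out each library in turn gave ranges across 0 for Gsta3 -0.013 to 0.56, Gstm6 -0.047 to 0.27, Gsto1 -0.031 to 0.15, Gstt3 -0.0061 to 0.24, Gstk1 -0.020 to 0.029, Gss -0.061 to 0.022, Srxn1 -0.020 to 0.13, Prdx3 -0.042 to 0.0076, Prdx5 -0.060 to 0.018, Sod1 -0.055 to 0.037, Sod2 -0.025 to 0.032, Sod3 -0.029 to 0.067, Cat -0.079 to 0.15, Gpx3 -0.19 to 0.090, Mt1 -0.24 to 0.044 and Mt2 -0.34 to 0.21. Their cause was not tested.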
